A study of Mus musculus with 62 samples.

Results

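H3K4me2 levels were compared between EDL (extensor digitorum longus), a fast muscle of the lower leg, and Sol (soleus), a slower and more oxidative one. Members of the comparison were peaks of the EDL and Sol H3K4me2 lists that each overlapped a single partner in the other list over at least 50% of both peaks. This gave 26032 matched regions, which were 61.3% of the 42501 EDL peaks and 72.9% of the 35696 Sol peaks. A further 3749 EDL and 4347 Sol peaks overlapped a peak of the other muscle by less than that, and 12720 EDL (29.9%) and 5317 Sol peaks (14.9%) overlapped none. Both groups had 2 replicate libraries of muscle from sedentary wild-type C57BL/6 mice (C57BL/6J in the study's methods). Per the study's methods these were males, 7 to 8 weeks old when purchased, and EDL or Sol of 3 animals were pooled for each sample. The same antibody against H3K4me2 was used for all libraries, and 1 input library (sheared chromatin without immunoprecipitation) belonged to each muscle. The spread between 2 pools is the only measure of error here.

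H3K4me2 is dimethylation of histone H3 at lysine 4, which marks promoters and enhancers whether or not these are active at the time. Muscles are mixtures of fibers that differ in myosin heavy chain isoform. Fast glycolytic fibers carry the isoforms of Myh4 and Myh1, slow fibers carry that of Myh7, and Myh2 encodes the isoform of fast oxidative fibers. Fast and slow fibers also differ in their troponins, myosin light chains, calcium pumps and enzymes, and a whole muscle contains blood vessel, connective tissue and other cells besides. In pooled chromatin, fewer nuclei of a cell type and less of the mark per nucleus cannot be told apart.

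To show what such regions look like, the central 300 bases are printed for the region furthest apart in each direction, near 4930413E15Rik (higher in EDL) and Arid5b (higher in Sol), and for a region near a fiber-type regulator. This is Rcan1, a calcineurin regulator that is itself induced by calcineurin and NFAT (higher in Sol). These regions were chosen on levels without the input subtracted, and with it subtracted the direction at 4930413E15Rik reversed. At Rcan1 the input differed between the muscles as much as H3K4me2 did (-1.07 and -1.06, EDL minus Sol on the log2 scale). At Arid5b these differences were -0.90 and -1.48. Sequences are RefSeq GRCm38 (mm10), forward strand, and capitals mark the factor motifs searched for below. The windows are chr5:118789751-118790050, chr10:68156511-68156810 and chr16:92415878-92416177, in the order shown, and none covers an annotated exon.
4930413E15Rik region: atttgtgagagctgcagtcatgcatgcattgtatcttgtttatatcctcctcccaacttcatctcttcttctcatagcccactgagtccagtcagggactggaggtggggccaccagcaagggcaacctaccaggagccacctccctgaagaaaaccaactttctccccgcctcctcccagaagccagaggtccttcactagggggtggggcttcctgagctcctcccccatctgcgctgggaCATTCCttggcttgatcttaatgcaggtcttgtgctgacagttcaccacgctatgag
Arid5b region: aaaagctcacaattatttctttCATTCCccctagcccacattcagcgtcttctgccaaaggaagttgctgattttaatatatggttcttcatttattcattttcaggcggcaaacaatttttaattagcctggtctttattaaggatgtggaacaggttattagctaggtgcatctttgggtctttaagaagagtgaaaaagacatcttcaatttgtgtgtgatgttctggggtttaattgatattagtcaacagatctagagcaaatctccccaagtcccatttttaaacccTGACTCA
Rcan1 region: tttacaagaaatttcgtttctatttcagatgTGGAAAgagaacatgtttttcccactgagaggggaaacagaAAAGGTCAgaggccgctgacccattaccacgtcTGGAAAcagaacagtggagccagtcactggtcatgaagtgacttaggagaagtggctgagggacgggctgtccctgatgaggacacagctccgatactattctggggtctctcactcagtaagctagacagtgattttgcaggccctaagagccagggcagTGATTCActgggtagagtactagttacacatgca
The window near 4930413E15Rik holds GGAATG on the reverse strand, the core word of TEAD factors. The Arid5b window holds GGAATG and TGANTCA, the word of AP-1 factors. The Rcan1 window holds TGGAAA (the core word of NFAT factors) at 2 places, TGANTCA, and AAAGGTCA, an extended form of the nuclear receptor word AGGTCA.

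Levels are the deposited log2 tag values of each region minus the log2 of its width in kb, set relative to the median of the same library over all matched regions. A level of -1 thus means 2-fold less mark per kb than at the median region. The 2 muscles carried the mark at closely similar levels, with Spearman rank correlation r_s = 0.930 across regions (SD over the pairings of single libraries, 0.00477). Replicates ranked the regions more alike (r_s = 0.983 in EDL and 0.972 in Sol) than single libraries of the 2 muscles did (0.914 to 0.926). The median absolute difference was 0.199 between muscle means and 0.214 between single EDL and Sol libraries (log2 scale). It was 0.0948 between EDL and 0.113 between Sol replicates. Replicates share peak boundaries and a normalization that the muscles do not share, so their spread leaves out that source of error. All EDL libraries lay on 1 side of all Sol libraries at 67.3% of regions, 33.3% higher in EDL and 34% higher in Sol. With 2 against 2 libraries an exact permutation test cannot give a two-sided p below 0.333, and the lists were normalized separately, so no region was tested.

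A difference of means over 2-fold without overlap of the replicates was found at 161 of 26032 regions (0.618%), 64 higher in EDL (0.246%) and 97 higher in Sol (0.373%). Replicates of a single muscle were over 2-fold apart at 15 regions in EDL and 15 in Sol (0.0576% each). The 4 regions just past 2-fold on either side lay at absolute differences of 1.00 to 1.002, and the 4 just short of it at 0.997 to 0.999. At the EDL-higher regions the mark stood at a median percentile of 41.2 among EDL regions and 3.78 among Sol regions. At the Sol-higher regions it stood at the 3.41 percentile in EDL and the 32.2 percentile in Sol. These are medians, and single regions stood higher, such as one in Myoz3 at the 68.0 percentile in EDL and the 31.4 percentile in Sol.

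**Figure D1:**
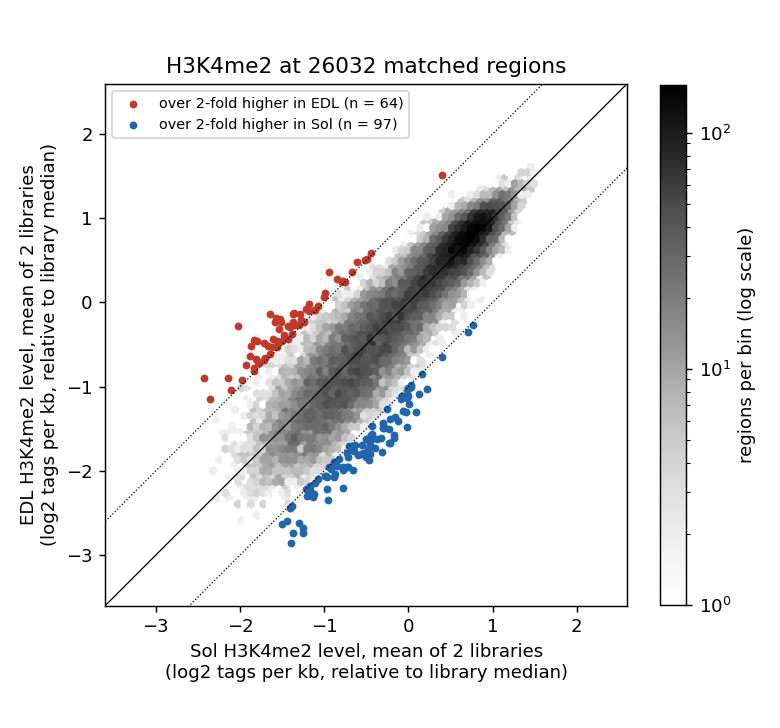
Mean H3K4me2 level of the 2 Sol libraries (x axis) against that of the 2 EDL libraries (y axis) at 26032 matched regions, in log2 tags per kb relative to the library median. Gray shading is the number of regions per bin on a log scale, the solid line is equality and dotted lines are 2-fold. Most regions lie along the diagonal, with 64 regions (red) over 2-fold higher in EDL and 97 (blue) over 2-fold higher in Sol.

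The counts depended on scaling and on the input. Without centring, EDL levels exceeded Sol levels by a median of 0.40, and 675 regions were then over 2-fold higher in EDL and 10 in Sol. Quantile normalization gave 115 and 60, and centring within 20 bins of level gave 131 and 52, so which muscle held more such regions was not fixed by the data. EDL replicate 2 and Sol replicate 2 each moved the total by over 1.5 times, to 283 without the former and 268 without the latter. The input column differed between muscles in the same direction as the ChIP column at 62 of the 64 EDL-higher and 95 of the 97 Sol-higher regions, against 66.9% of all regions. Its median difference was 1.00 at the former and -0.89 at the latter, next to 1.10 and -1.16 for H3K4me2. With each muscle's input column subtracted from its ChIP columns, 454 regions were over 2-fold apart (194 higher in EDL, 260 in Sol), of which 10 were among the 161. All regions then had a median difference of -0.06, with 32.0% higher in EDL and 41.2% higher in Sol without overlap. The part of the input in the differences named below was not tested. Where an input library appeared beside both H3K4me2 and H3K27ac in regions with at least 90% overlap, its value differed between the lists with an SD of 0.0991 (EDL, 2247 regions) and 0.105 (Sol, 1849 regions).

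Few promoters were among the regions over 2-fold apart. The authors' annotation placed 13.9% of all matched regions in promoters, compared with 1 of 64 EDL-higher and 3 of 97 Sol-higher regions. Over 2-fold differences were found at 0.110% of promoter, 0.633% of intragenic and 0.863% of intergenic regions. The median distance to the nearest start site was 24716 bp at EDL-higher and 31643 bp at Sol-higher regions, against 3222 bp at all regions. Over 2-fold differences were concentrated at regions of low level, since the lowest 3 deciles by level held 50 of the 64 and 84 of the 97. The difference itself followed the level, from a median of -0.22 in the lowest decile to 0.07 in decile 9. It also followed the ratio of the widths of the matched peaks (r_s = -0.327 with the log2 ratio of EDL to Sol width).

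**Figure D2:**
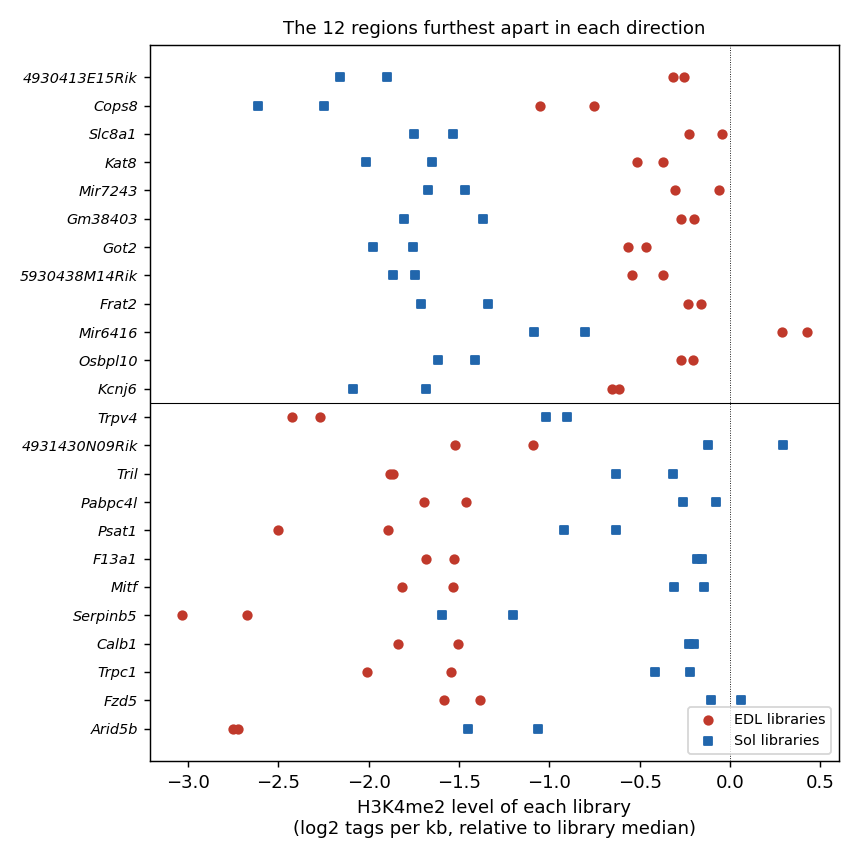
H3K4me2 level of each library (log2 tags per kb relative to the library median) at the 12 regions furthest apart in each direction, labelled by the nearest gene. Circles are the 2 EDL libraries and squares the 2 Sol libraries. EDL libraries lie to the right of Sol libraries in the upper 12 rows and to the left in the lower 12, and only a few points exceed the dotted line at 0, the library median.

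The region furthest apart lay at -162592 bp from the start site of 4930413E15Rik (chr5:118788828-118790666, intergenic). Its level was -0.25 and -0.31 in EDL and -2.16 and -1.90 in Sol, a 3.35-fold difference (1.75 on the log2 scale), and it was the only region past 3-fold. Its input column differed by 1.93, more than its H3K4me2 columns, and with the input subtracted its direction reversed. An intergenic region 92232 bp from Cops8, a subunit of the COP9 signalosome, had levels of -0.75 and -1.05 in EDL and -2.25 and -2.61 in Sol (2.89-fold). An intronic region of Slc8a1 (chr17:81702255-81706172), which encodes a sodium-calcium exchanger of the plasma membrane, stood at -0.04 and -0.23 in EDL and -1.75 and -1.53 in Sol (2.84-fold). At all 3 regions the EDL libraries lay close to the library median or below it and the Sol libraries were among the lowest of their muscle. The next regions were near Kat8, a histone acetyltransferase, Mir7243, Gm38403, Got2, the mitochondrial aspartate aminotransferase, 5930438M14Rik, Frat2, Mir6416, Osbpl10 and Kcnj6, a potassium channel. They were 2.38-fold (Kcnj6) to 2.62-fold (Kat8) higher in EDL. Mir6416 was the one region of the 12 with a level above the median in both EDL libraries (0.29 and 0.43, against -1.08 and -0.80 in Sol). With the input subtracted the direction also reversed at Cops8, Kat8, Mir7243, 5930438M14Rik and Osbpl10, and not at the others of the 12. The cause was not tested.

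Among the Sol-higher regions the largest difference was in an intron of Arid5b (chr10:68156330-68156990), a DNA-binding protein with an AT-rich interaction domain. Its level was -2.75 and -2.72 in EDL and -1.06 and -1.45 in Sol, 2.79-fold higher in Sol. A second Arid5b intron region (chr10:68249121-68250008) had levels of -1.54 and -1.32 in EDL and -0.11 and -0.50 in Sol (2.18-fold). Arid5b was 1 of only 2 genes with more than 1 such region among 159 genes. The other was Psat1, an enzyme of serine synthesis, where differences of -1.42 were found both at the end of the gene and in an intergenic region 87194 bp from its start site. Not all Arid5b regions followed: of its 10 matched regions, 6 were higher in Sol without overlap and 3 higher in EDL. A region nearest the start of Fzd5, a Wnt receptor gene, but within Plekhm3 in RefSeq (chr1:64835390-64837419), stood at -1.58 and -1.39 in EDL and 0.06 and -0.10 in Sol (2.76-fold). Trpc1 and Trpv4, which encode cation channels, differed by -1.46 and -1.39. The remaining regions of the 12 were near Calb1, Serpinb5, Mitf, F13a1, Pabpc4l, Tril and 4931430N09Rik, with differences of -1.39 (4931430N09Rik) to -1.46 (Calb1). The input column also differed in the direction of Sol at all 12, by -0.46 (Calb1) to -1.46 (Serpinb5). It differed nearly as much as the H3K4me2 columns at Mitf (-1.38), Tril (-1.37) and F13a1 (-1.35), and as much at Serpinb5. With the input subtracted none of the 12 changed direction, and the part of the input was not tested. Mitf encodes a basic helix-loop-helix factor and F13a1 the A chain of coagulation factor XIII.

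A minority of the regions over 2-fold apart could be matched in other lists of the series, and most of these had the same direction there. In the same kind of comparison, Quad and Dia H3K4me2 were over 2-fold apart at 1.55% of 22297 matched regions (0.888% higher in Quad, 0.659% higher in Dia), and EDL and Sol H3K27ac at 2.73% of 20649 (1.93% higher in EDL, 0.799% higher in Sol), both above the 0.618% for EDL and Sol H3K4me2. Quad (quadriceps, mostly fast fibers) and Dia (diaphragm, more oxidative) were profiled for H3K4me2 in libraries that share none with EDL or Sol. The Quad minus Dia difference was positive at 24 of the 27 EDL-higher regions that could be matched (of 64) and negative at 21 of the 22 Sol-higher ones (of 97), whereas 46.3% of the 18758 regions with a value in all 4 muscles were positive. At the 4930413E15Rik region Quad stood at 0.21 and -0.02 and Dia at -1.51 and -1.30, so that both Quad libraries lay above both Dia libraries. For H3K27ac, a mark of active enhancers and promoters, EDL exceeded Sol at 16 of 16 EDL-higher regions and Sol exceeded EDL at 27 of 27 Sol-higher regions, while 50.2% of all 13557 regions with a value were positive. The Slc8a1 region had an H3K27ac difference of 2.05 (0.55 and 0.62 in EDL, -1.31 and -1.62 in Sol) and a Quad minus Dia H3K4me2 difference of 1.05. At Calb1 the H3K27ac difference was -1.36. The H3K27ac lists of EDL and Sol were called against the same input libraries as the H3K4me2 lists, so their agreement is not independent of the input. Regions were also chosen, and their direction taken, after subtracting the input from the EDL and Sol H3K4me2 columns only. The share with the same direction was then 48.3% of 302 for Quad and Dia and 54.6% of 108 for H3K27ac. The Quad, Dia and H3K27ac values were not input-subtracted, so unlike measures are compared there. Over all regions, with no input subtracted on either side, the shares were 55.7% and 64.3%. Across all regions the H3K4me2 difference correlated weakly with that between Quad and Dia (r_s = 0.191) and more with that of H3K27ac (r_s = 0.413, shared input).

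**Figure D3:**
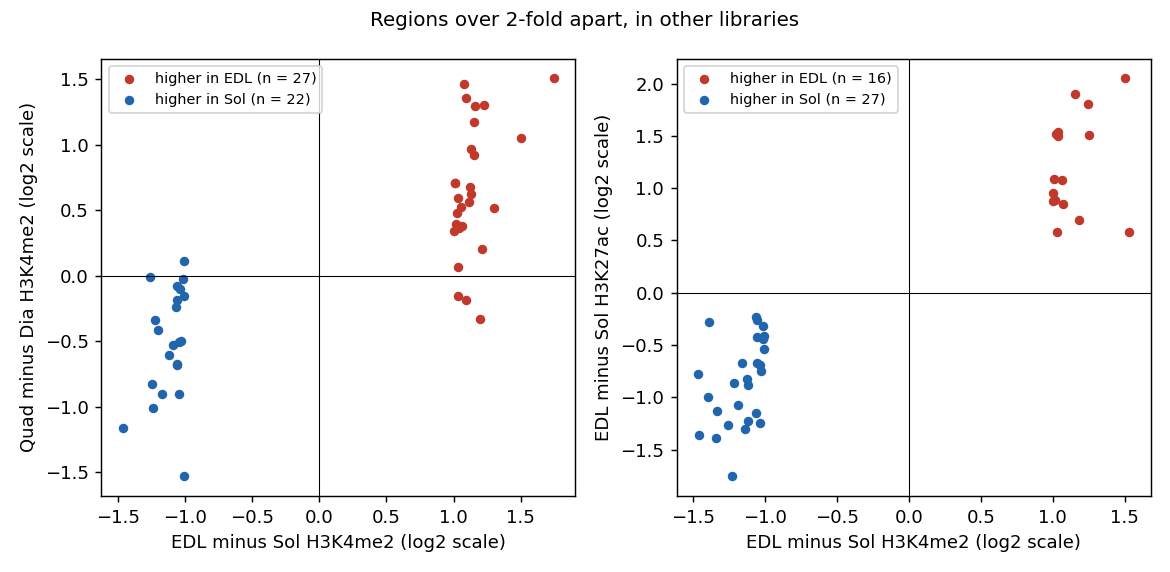
EDL minus Sol H3K4me2 difference (x axis) at regions over 2-fold apart, against the Quad minus Dia H3K4me2 difference (left, 27 EDL-higher regions in red and 22 Sol-higher in blue) and the EDL minus Sol H3K27ac difference (right, 16 and 27), all on the log2 scale. Points fall in the upper right and lower left quadrants except for 4 in the left panel.

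The muscles differed at the myosin heavy chain genes in which peaks were present rather than in the level of matched peaks. No peak nearest Myh1, Myh2, Myh4 or Myh7 was matched at 50% overlap. In EDL a peak of 16565 bp covered the start of Myh4 (chr11:67227913-67244478) at levels of -0.28 and -0.44, and no Sol peak was assigned to the gene. Conversely, Sol had 2 peaks at Myh2, one of 8338 bp (chr11:67170209-67178547) at -0.43 and -0.32, and 4 peaks at Myh7, the highest of which lay just upstream (chr14:54995233-54998132) at -1.07 and -0.95. EDL peaks at these genes were an intergenic one of 845 bp at Myh2 and another of 786 bp at Myh7, neither overlapped by a Sol peak. At Myh1, an EDL peak of 6052 bp at -0.47 in both libraries overlapped Sol peaks of 656 and 1499 bp. The fast and slow myosin genes thus matched the muscle labels. No peak of either list was assigned to Myh6, the cardiac isoform. At the promoter of the control gene Ngdn next to Myh7, levels were 0.96 and 0.99 in EDL and 1.08 and 0.93 in Sol, and overlapped.

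Because peaks at contractile genes were often much broader in 1 muscle, and then dropped out of the matching, the length under peaks was summed per nearest gene. There is a single peak list per muscle, so these lengths have no replicates. EDL had more length than Sol at 71.6% of 17188 genes, and over 2-fold more at 13.2%, with Sol over 2-fold ahead at 4.29%. All 20 genes of the fast contractile and calcium list had more length in EDL (255 against 130 kb summed), 7 of them over 2-fold. Cacna1s, the calcium channel of the T-tubule, had 19.8 kb in EDL and 7.89 kb in Sol, and Mybpc2, the fast myosin-binding protein C, 16.2 and 4.38 kb. Actn3, the fast-fiber alpha-actinin, had 9.39 kb in EDL and none assigned in Sol, although that EDL peak overlapped a Sol peak assigned to another gene. Of 19 slow contractile genes with a peak, 14 had more length in Sol and 5 in EDL (188 against 135 kb summed), and 10 were over 2-fold longer in Sol and 0 in EDL. Lengths in EDL and Sol were 0.786 and 11.2 kb at Myh7 and 2.47 and 7.79 kb at the light chain gene Myl2. Tnni1, which encodes slow troponin I, had 1.67 and 7.05 kb. Myh2, which this list holds although its isoform is that of fast oxidative fibers, had 0.845 and 9.11 kb. Myl3 and Tnnc1, genes of a slow light chain and troponin C, had 6.77 and 2.07 kb in Sol and no EDL peak. The 5 exceptions included Mb, myoglobin, with 15.4 kb in EDL and 9.01 kb in Sol.

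**Figure D4:**
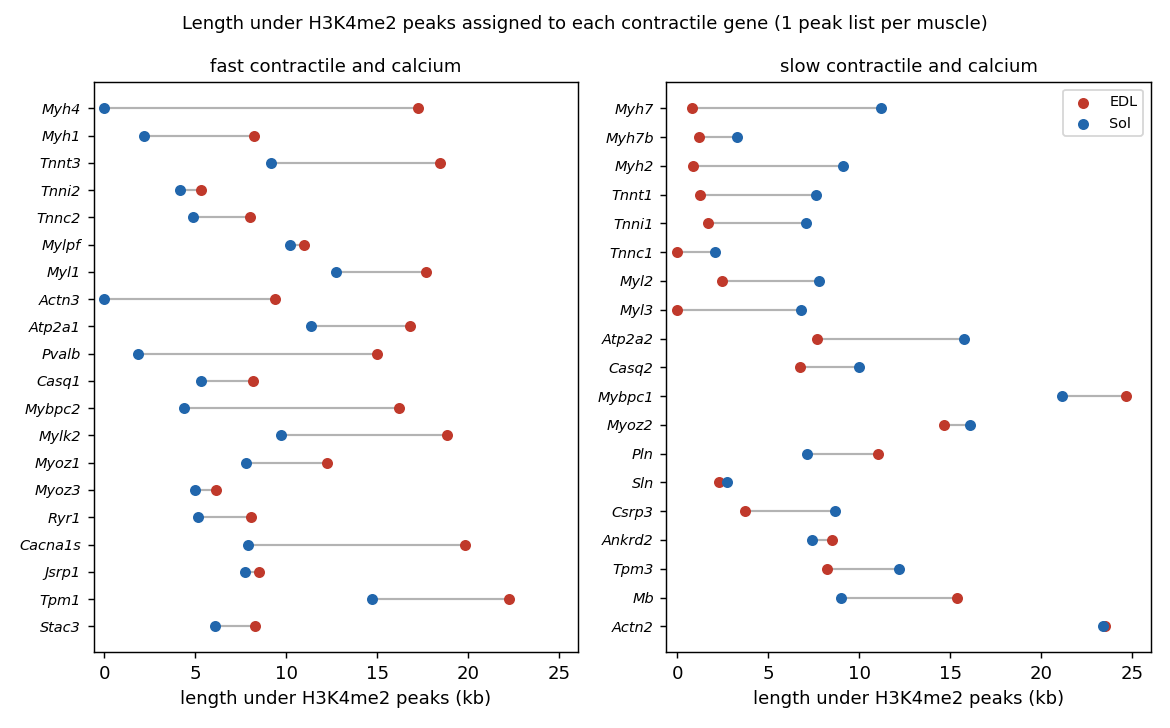
Length under H3K4me2 peaks assigned to each gene (kb) in EDL (red) and Sol (blue). Shown are 20 fast contractile and calcium genes (left) and 19 genes of the slow list, Myh2 among them (right). Lines join the 2 muscles, and a gene with no assigned peak stands at 0. Each muscle has 1 peak list, so there are no error bars; all fast genes have more length in EDL, and 14 of the slow genes have more in Sol.

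At matched regions the fast contractile genes also had higher levels in EDL. Of 18 regions at 14 of the 20 genes, 15 were higher in EDL without overlap of replicates and 3 higher in Sol, beside 33.3% and 34% of all regions, and the median difference was 0.36, against -0.01 for all regions. Without centring, list medians moved with the shift of 0.40 between the libraries, to 0.77 here, and are read relative to it. A region in Myoz3, a Z-disc protein of fast fibers (chr18:60589389-60592869), was over 2-fold apart, at 0.61 and 0.39 in EDL and -0.54 and -0.49 in Sol. Tnnc2, fast troponin C, fell just short at 0.67 and 0.78 in EDL and -0.20 and -0.34 in Sol, a difference of 0.99. Ryr1, the calcium release channel, differed by 0.74 and the light chain gene Myl1 by 0.60, values named after they were seen. With the input subtracted, the median was 0.12 (-0.06 for all regions). Of the 18 regions, 9 (50%) were then higher in EDL and 6 (33.3%) in Sol, beside 32.0% and 41.2% of all regions. Quad exceeded Dia at 10 of 11 regions of this list, and H3K27ac was higher in EDL at 11 of 14, with a median difference of 0.74. Over all regions with a value, these differences were positive at 46.3% and 50.2%.

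At slow contractile genes the difference at matched regions depended on the scaling. Their 24 regions had a median difference of -0.05 (0.0048 within 20 bins of level), with 8 higher in EDL and 9 in Sol without overlap. These were 33.3% and 37.5%, beside 33.3% and 34% of all regions. Without the width term the median was -0.27, with 8 regions higher in EDL (33.3%) and 15 in Sol (62.5%). All regions then had 29.4% and 35.9%. At 1 bp overlap it was -0.12, with 9 (26.5%) and 17 (50%) of 34, beside 33.7% and 34.5% of all regions. With the input subtracted the list median was -0.24, with 2 regions higher in EDL (8.33%) and 15 in Sol (62.5%). All regions then had 32.0% and 41.2%. A region at -11843 bp from the start site of Atp2a2, the slow calcium pump SERCA2 (chr5:122513489-122514647), was over 2-fold higher in Sol, at -1.70 and -1.76 in EDL and -0.71 and -0.60 in Sol. Its input column differed by -1.38, more than the H3K4me2 columns (-1.07), and with the input subtracted the difference was 0.28. Csrp3 (muscle LIM protein), Casq2 (the slow and cardiac calsequestrin) and 1 of 5 Actn2 regions differed by -0.68, -0.66 and -0.64, named after their values were seen. The median over the 5 regions of Actn2, which encodes an alpha-actinin of the Z-disc, was -0.07. On the other hand Myl2 and Myoz2, also of this list, differed by 0.17 and 0.24 in the direction of EDL, and at Myl2 the matched peak was 1 of 3 Sol peaks.

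Genes of glycolysis and glycogen use were mostly higher in EDL. Of 42 regions at 25 genes, 27 were higher in EDL (64.3%) and 11 in Sol (26.2%) without overlap (median 0.22). The shares of all regions were 33.3% and 34%. More length under peaks in EDL was found at 28 of 30 genes (93.3%), beside 71.6% of all genes. A region at Pygm, muscle glycogen phosphorylase (chr19:6375769-6378969), stood at 0.30 and 0.21 in EDL and -0.68 and -0.87 in Sol (2.04-fold). Gpi1, Ppp1r3a and Ckm, encoding glucose-6-phosphate isomerase, the glycogen-targeting subunit of protein phosphatase 1 and muscle creatine kinase, had largest differences of 0.68, 0.64 and 0.61. Exceptions that ran the other way were Aldoa at -0.17 and the Gbe1 region furthest apart at -0.69. In length under peaks the 2 exceptions were Ckm, with 2.52 kb in EDL and 5.67 kb in Sol, and Tpi1, with 2.925 kb in Sol and no EDL peak. H3K27ac was higher in EDL at 29 of 30 regions of this list (96.7%), beside 50.2% of all regions with a value. With the input subtracted the H3K4me2 median was 0.01 (-0.06 for all regions). Higher in EDL were then 18 regions (42.9%) and in Sol 17 (40.5%), beside 32.0% and 41.2% of all regions.

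Among oxidative genes the direction depended on the list and on the scaling. Fatty acid and ketone genes had a median difference of -0.0035 over 46 regions, and none was over 2-fold apart. Without overlap 14 were higher in EDL (30.4%) and 19 in Sol (41.3%), beside 33.3% and 34% of all regions. With the input subtracted this list had a median of -0.12 (-0.06 for all regions). Its regions were then higher in EDL at 8 (17.4%) and in Sol at 26 (56.5%), beside 32.0% and 41.2% of all regions. Without the width term the median was -0.17 with 7 (15.2%) and 25 (54.3%), beside 29.4% and 35.9% of all regions. Of the 46 regions 6 were then over 2-fold higher in Sol, beside 637 of all 26032. Single regions were nevertheless well separated, such as one at Cd36, the fatty acid transporter, at -0.28 and -0.12 in EDL and 0.69 and 0.62 in Sol (-0.85). Regions near Bdh1, the mitochondrial ketone dehydrogenase, and Slc16a1, the lactate and ketone carrier MCT1, differed by -0.97 and -0.85, all 3 named after their values were seen. At respiratory chain and citrate cycle genes 25 of 41 regions were higher in EDL and 9 in Sol, with a median of 0.14. With the input subtracted the counts were 17 and 15 (41.5% and 36.6%, beside 32.0% and 41.2% of all regions) and the median 0.04. Without the width term they were 18 and 8 (43.9% and 19.5%, beside 29.4% and 35.9% of all regions), and the median was 0.03. The only one over 2-fold apart was intergenic, at -21025 bp from the start site of Nrf1, a transcription factor of nuclear genes for mitochondrial proteins, at -1.56 and -1.75 in EDL and -0.51 and -0.39 in Sol. Its input column differed as much as its H3K4me2 columns (both -1.20), and with the input subtracted the difference was -0.03.

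**Figure D5:**
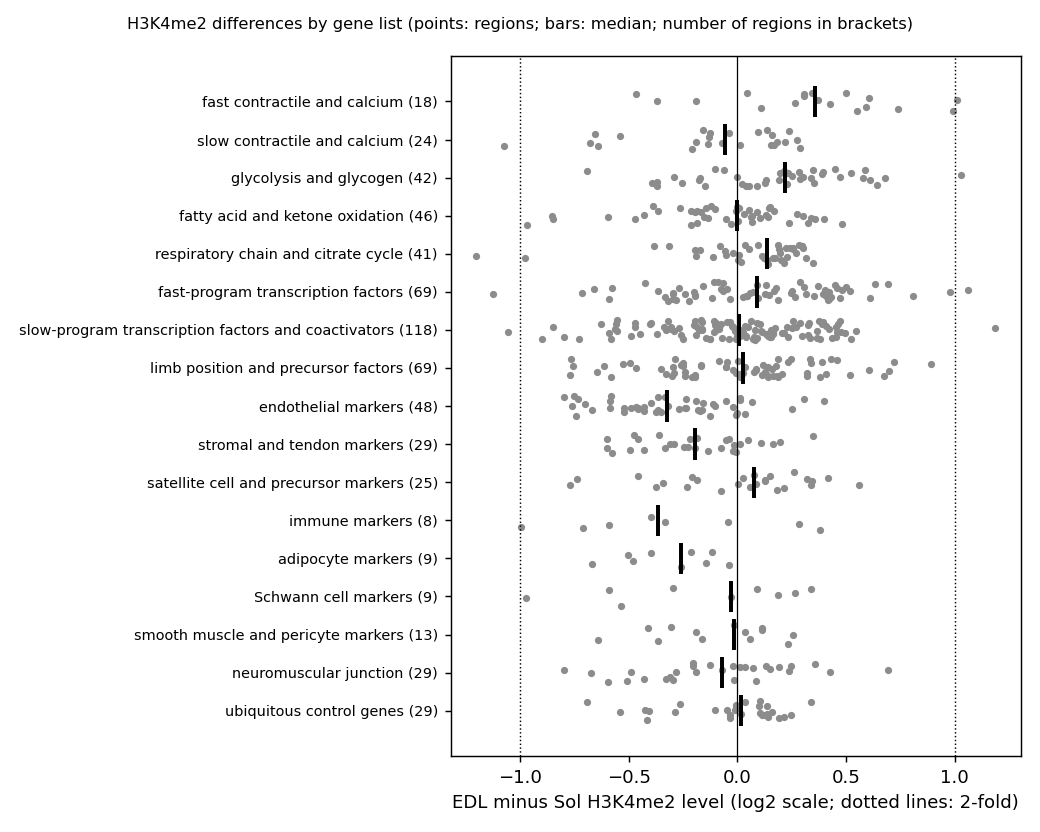
EDL minus Sol H3K4me2 difference (log2 scale) of every matched region of 17 gene lists (gray points, with the number of regions in brackets), the list medians (black bars) and 2-fold (dotted lines). Medians lie furthest right for fast contractile genes (0.36) and glycolysis (0.22) and furthest left for immune (-0.36) and endothelial (-0.33) markers, and single regions of each list spread widely around them.

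Transcription factors of the fast and slow programs had regions higher in either muscle, as 33.3% (EDL) and 34% (Sol) of all regions were without overlap. Fast-program factors had 34 of 69 regions higher in EDL (49.3%) and 23 higher in Sol (33.3%), with a median of 0.09. With the input subtracted the median was -0.11, with 33.3% higher in EDL and 50.7% in Sol. Over all regions these were then -0.06, 32.0% and 41.2%. Of the 69 regions, 1 was over 2-fold higher in EDL and 1 in Sol. Tbx15 and Eya4, a T-box factor and a coactivator of homeobox factors of fast fibers, had single regions with differences of 0.98 and 0.81, and Myod1 one of 0.61. Sox6, a repressor of slow fiber genes, had 8 of 9 regions higher in EDL without overlap (median 0.42), and Maf had a median of 0.42 over 8 regions. The Sol-higher one, at -35701 bp from the start site of Hdac4, a class IIa deacetylase that represses MEF2 factors, stood at -1.87 and -1.66 in EDL and -0.30 and -0.98 in Sol (-1.12). Its input column differed by -0.92. Apart from the Hdac4 region these were named after their values were seen.

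Among 118 regions of slow-program factors and coactivators, 42 were higher in EDL (35.6%) and 37 in Sol (31.4%) without overlap, and the median was 0.01. These shares were near the 33.3% and 34% of all regions. The Rcan1 region was 2.08-fold higher in Sol, at -1.57 and -1.81 in EDL and -0.74 and -0.53 in Sol, its H3K27ac difference was -0.42, and its input difference was -1.07. A region in Ppargc1b, which encodes the oxidative coactivator PGC-1beta, was in contrast higher in EDL, at -0.30 and -0.56 against -2.06 and -1.16 in Sol (1.18). Its input column differed by 1.16, nearly as much, and the part of the input was not tested. The 2 Sol libraries there lay nearly 1 log2 unit apart, though below both EDL libraries. Epas1, the hypoxia-inducible factor HIF-2alpha, which endothelium also expresses, had 7 of 7 regions higher in Sol without overlap (median -0.59), and Mef2c had a largest difference of -0.80, both named after their values were seen. Factors of limb position and muscle precursors had a median of 0.03 over 69 regions, 25 higher in EDL (36.2%) and 22 in Sol (31.9%), also near those shares. Within them, Hoxa11 had a single region at 0.89, Pax3 one at 0.72 and Meox2 one at -0.76.

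Markers of endothelial, stromal, immune and adipocyte cells had more regions higher in Sol than in EDL, whereas those of satellite and Schwann cells had as many in each direction. Over all matched regions, 33.3% were higher in EDL and 34% in Sol without overlap. Endothelial markers were lower in EDL at 31 of 48 regions (64.6%) and higher at 3 (6.25%) without overlap. Medians by library were -0.84 and -0.85 in EDL and -0.52 and -0.51 in Sol. The median was below 0 at 14 of 15 genes. Kdr, the receptor for vascular endothelial growth factor, had a largest difference of -0.76, and the endothelial surface gene Emcn a median of -0.52 over 5 regions. Quad stood below Dia at 21 of 26 of these regions, and EDL below Sol in H3K27ac at 19 of 25. These differences were positive at 19.2% and 24% of them, beside 46.3% and 50.2% of all regions with a value. With the input subtracted the H3K4me2 median was -0.24 (-0.06 for all regions). Stromal and tendon markers were lower in EDL at 13 of 29 regions (44.8%) and higher at 3 (10.3%). Library medians were -0.93 and -0.93 in EDL and -0.60 and -0.64 in Sol. The stromal difference was smaller under scalings that follow the level, with a median of -0.20 that became -0.05 with quantile normalization (5 higher and 10 lower in EDL) and -0.06 within 20 bins of level (6 and 11). Quad stood below Dia at 4 of 10 stromal regions, and EDL below Sol in H3K27ac at 10 of 17. These differences were positive at 60% and 41.2% of them, beside 46.3% and 50.2% of all regions. Immune markers were lower in EDL at 5 of 8 regions (62.5%) and higher at 1 (12.5%). Their library medians were -0.76 and -0.66 in EDL and -0.51 and -0.45 in Sol. Csf1r, the macrophage colony-stimulating factor receptor, was the furthest apart among them (-0.997). Adipocyte markers had 9 regions at 3 of 8 genes, 6 of them lower in EDL (66.7%) and 0 higher (median -0.26, and 0.01 with the input subtracted). Length under peaks was greater in EDL at 10 of 16 endothelial, 13 of 16 stromal, 3 of 9 immune and 3 of 5 adipocyte genes. The share of all genes was 71.6%. Stromal genes thus ran the other way in length than in level, with 25% over 2-fold longer in EDL, beside 13.2% of all genes. Defining genes were thinly covered, since Cd68, Cx3cr1, Cidec, Retn and Tnmd had no peak in either list and Ptprc and Adipoq no matched one. The part of these cells in differences at other genes was not tested. Satellite cell markers had 8 regions in each direction (32%) and Schwann cell markers 4 in each (44.4%). Smooth muscle markers had 3 higher in EDL (23.1%) and 5 in Sol (38.5%). Neuromuscular junction genes had 7 and 11 of 29 regions (24.1% and 37.9%). Ubiquitous control genes had 12 and 7 of 29 (41.4% and 24.1%), and the medians of these 2 lists were -0.07 and 0.02.

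Open chromatin and factor peaks were compared as shares of regions they overlapped, with Wilson 95% intervals that cover counting error over regions only. Peaks of ATAC-seq (transposase-accessible chromatin) in control Quad overlapped 65.8% of all matched regions, 68.8% of EDL-higher regions (56.6 to 78.8%) and 28.9% of Sol-higher regions (20.8 to 38.6%). The Sol-higher interval lay below that of the EDL-higher regions. Quad is a fast muscle, and open chromatin of Sol was not analysed here. Peaks of MED1, a Mediator subunit, overlapped 0 of the 64 EDL-higher and 1 of the 97 Sol-higher regions in Sol and 0 of either in EDL (upper limits 5.66% for 0 of 64 and 3.81% for 0 of 97), against 6.32% and 1.33% of all regions. NFAT peaks of Sol overlapped 1.56% of EDL-higher and 2.06% of Sol-higher regions, against 2.44% of all regions.

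Motif words were counted on both strands in the central 300 bases. TGGAAA, the NFAT core, occurred in 23.1% of all matched regions, 26.6% of EDL-higher (17.3 to 38.5%) and 39.2% of Sol-higher regions (30.1 to 49.1%). The AP-1 word TGANTCA occurred in 7.11%, 7.81% and 14.4%, and the MEF2 motif in 1.24%, 4.69% and 5.15%. AAAGGTCA occurred in 1.35%, 6.25% and 3.09%, and AGGTCA, which it contains, in 15.5%, 21.9% and 21.6%. For the E-box CAGCTG the shares were 19.8%, 18.8% and 16.5%, and for GGAATG 14.3%, 10.9% and 16.5%. TCAGGTT occurred in 3.74%, 7.81% and 5.15%, and TCAAGGTCA, the word of estrogen-related receptors, in 0.430% of all regions and in 0 of the 161. Median GC content was 53.3% at all regions, 49.2% at EDL-higher and 46.7% at Sol-higher regions, and its part in the shares of AT-rich words was not tested. A match is a description of the sequence only.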

How the data were processed

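H3K4me2 ChIP-seq was compared between 2 EDL and 2 Sol libraries, grouped by sample title. Per the submitters' processing notes reads were aligned to mm10 with Bowtie 1.2, and per the study's methods with uniquely mapped reads and 1 tag kept per position. Depth was 20971524 and 19496114 tags in EDL, 16849204 and 22382835 in Sol, and 19857682 and 18901362 in their inputs. The authors called each list across both replicates against input with HOMER and DESeq2 (2-fold, FDR 0.05), and the deposited tag columns hold log2 values, taken to be regularized logarithms, normalized within each list. The deposited p-value columns were used as an alternative filter only, and the deposited columns of the authors' fold changes were used only for the alternative at 4-fold enrichment. The deposited peak score of MED1 and NFAT peaks and the deposited signal of Quad ATAC peaks served only to identify the files, and their positions were overlapped by 1 bp.

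Each library was centred on its median over matched regions after subtracting the log2 width (Python 3.11.15, numpy 2.4.6, pandas 2.3.3, scipy 1.17.1, pysam 0.24.0). The ChIP values of an overlapping region in other lists were treated alike. The calculation was tested on simulated levels with planted differences. Regions were named by the nearest gene in the authors' annotation, which classed promoters, intragenic and intergenic regions. Named were, per direction, the 12 regions furthest apart (1 per gene), genes with several such regions, up to 4 such genes per list, and Myh1, Myh2, Myh4, Myh7, Myh6 and Ngdn. One region that this rule names is not reported here. The members, gene lists and rules were chosen with earlier results of these data known. Sequences came from RefSeq GRCm38.p6.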

Additional observations from a re-analysis of the deposited data

How the results depend on the processing

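Settings named as added, and the values of gene lists under other settings, were chosen after seeing the data. Counts over 2-fold apart (EDL-higher and Sol-higher) were 49 (7 and 42) at a reciprocal overlap of 80%, 306 (131 and 175) at 1 bp, 976 (339 and 637) without the width term, 685 (675 and 10) without centring, 454 (194 and 260) for ChIP minus input, 27 (7 and 20) at an adjusted p-value under 0.001 in both lists, 40 (13 and 27) without the lowest 25% by level, and 67 (14 and 53) where the wider peak exceeded its partner by less than 25% (added). Quantile normalization gave 175 (115 and 60), 20 bins of level 183 (131 and 52) and 4-fold enrichment in both lists 117 (48 and 69). A 1.5-fold threshold gave 2016 (706 and 1310) and a 3-fold threshold 1 (1 and 0). Leaving out each library gave 193 to 283 (62 to 108 and 131 to 191). Except at no centring, 20 bins, quantile normalization and 3-fold, Sol-higher regions outnumbered EDL-higher ones. The rank correlation was 0.950 at 80% overlap, 0.922 at 1 bp, 0.972 without widths, 0.784 for ChIP minus input, 0.899 at the adjusted p-value, 0.886 without the lowest 25%, 0.951 for similar widths (added) and 0.921 to 0.929 leaving out each library. It was not computed within 20 bins, which remove the level by construction. With ChIP minus input the difference changed sign at 4930413E15Rik (-0.21), Cops8 (-0.089), Kat8 (-0.059), Mir7243 (-0.14), 5930438M14Rik (-0.62), Osbpl10 (-0.074) and Atp2a2 (0.28), the cause was not tested, and no other named region changed sign under any setting. Of 430 values of the 35 named regions under alternatives, 337 moved by less than the replicate spread, 86 moved further and 7 changed sign. Shares with the same direction (added) are given for Quad and Dia H3K4me2 and for H3K27ac. They were 48.3% and 54.6% of regions chosen on ChIP minus input, where the values compared with were not input-subtracted. At 1.5-fold they were 70.5% and 88.5%, and within 20 bins 89.3% and 94.1%. With the replicate number as a block, the count stayed 161 (64 and 97). Replicate numbers were not taken to pair the samples. Differences between replicates 1 and 2 correlated at -0.03 across regions between EDL and Sol, which cannot show whether pools shared animals. Depth and 2 libraries per muscle limit small differences, and 67.3% of regions already separated without overlap at any size.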
